A study of Mus musculus with 6 samples.

Results

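The genes followed here are 10 that the transcription factor p53 is known to switch on, measured in cultured mouse skin fibroblasts. They are Mdm2, Ccng1, Btg2, Bax, Perp, Trp53inp1, Zmat3, Sesn1, Gdf15 and Polk. They were taken by gene symbol from the deposited table, and all 10 of 10 were among its 13706 listed genes and passed the filter on low values. Messenger RNA of primary dermal fibroblasts was measured in 6 libraries, 2 in each of 3 groups. KO + H-151 cells carried the CreER transgene R26-CAG-CreER beside the floxed alleles Yap1 fl/fl and Wwtr1 fl/fl, and were given H-151 at 1 µM, a compound that inhibits the DNA-sensing adaptor STING. KO cells had that same genotype and no inhibitor. Control cells had both floxed alleles and no Cre. All 3 groups received 1 µM 4-hydroxytamoxifen for 72 hr, which activates the Cre recombinase where it is present. The Cre is expressed from the ROSA26 locus under a CAG promoter, so KO and control cells differ in active Cre as well as in Yap1 and Wwtr1, and the share of each in a difference cannot be told apart here. No group compared here carried Cre without the floxed alleles, or received H-151 without Cre.

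The p53 protein accumulates after DNA breaks and other stresses and raises the transcription of genes that stop the cell cycle, repair DNA or start cell death. Nuclear Cre is known to be able to cut mammalian DNA at sites that resemble its own target, so p53 targets are a common readout of whether a Cre-bearing culture shows a damage response. Among the 10 genes, Mdm2 and Ccng1 act back on p53, Btg2 slows proliferation, and Bax, Perp, Trp53inp1 and Zmat3 take part in cell death or growth control. Sesn1 limits growth signalling under stress, Gdf15 is a secreted stress cytokine and Polk is a DNA polymerase that copies past damaged bases.

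Values are read counts scaled to library size (scaled CPM), as deposited, and all differences are on the log2(scaled CPM + 1) scale. Read totals over the listed genes were 12444986 to 15308100 per library, and the rank correlation of replicate libraries across genes was 0.994 to 0.996. Wwtr1 stood at 3.07 and 4.00 in KO + H-151, 4.79 and 5.03 in KO, and 213 and 218 in control. Yap1 stood at 45.3 and 42.4 in KO + H-151, 66.4 and 68.3 in KO, and 122 and 128 in control. Both targeted transcripts were lower in all 4 Cre-bearing libraries than in the controls. Both were also lower in KO + H-151 than in KO, with differences of -0.61 for Yap1 (limma, adjusted p = 8.35e-06) and -0.39 for Wwtr1 (limma, adjusted p = 0.0258). The Cre-bearing groups thus differed in the targeted transcripts as well as in H-151, and the part of this in the H-151 results was not tested. The labels do not name the deleted exons, and a 3' tag outside them would not report the deletion. The fibroblast markers Col1a1, Pdgfra and 8 others were all above 0 in every library. Their summed level was 25794 to 27628 in KO + H-151, 39533 to 41617 in KO, and 34658 to 35237 in control. Between KO + H-151 and KO 4 of the 10 were higher and 6 lower, against 19.4% and 21.4% of all genes. This shift moved with the H-151 results below, and its part in them was not tested. Nothing in the labels tells if paired libraries stem from different cultures or mice, and the p-values therefore cover only library-to-library spread, which may be technical. In these bulk cultures, fewer cells of a type and less RNA per cell cannot be told apart.

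Promoter windows of 300 bases (250 before to 50 after an annotated start) were at hand for 7 of the 10 genes, in 10 windows, from RefSeq on GRCm38.p6. The p53 decamer, the repeat unit of p53 response elements, was searched on both strands, which its symmetry makes 1 search. It was present in 5 of the 10 windows (50%), against 8.36% of all 32851 windows of this length. The 5 stretches that hold it are shown because they mark which members carry the decamer close to a start; capitals mark the decamer.
Mdm2, minus strand, chr10:117710915-117710964: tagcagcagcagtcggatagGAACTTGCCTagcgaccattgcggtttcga
Ccng1, minus strand, chr11:40755442-40755491: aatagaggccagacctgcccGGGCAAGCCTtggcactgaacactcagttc
Bax, minus strand, chr7:45467070-45467119: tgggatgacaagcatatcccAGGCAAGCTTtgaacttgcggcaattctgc
Sesn1, plus strand, chr10:41887246-41887295: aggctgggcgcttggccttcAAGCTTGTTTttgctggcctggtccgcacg
Polk, minus strand, chr13:96519389-96519437: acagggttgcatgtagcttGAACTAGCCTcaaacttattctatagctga
The decamer began 186 bases before the start in Mdm2, 185 in Ccng1, 201 in Bax, 173 in Sesn1 and 231 in Polk. The Sesn1 and Polk windows belong to 1 of 2 annotated starts each. A match is a description of these letters and not a measured binding site. The windows of Btg2 and Gdf15 had no exact match.

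The 10 genes did not move in one direction. In KO against control, 2 of the 10 were higher (Mdm2, Trp53inp1) and 5 were lower (Btg2, Perp, Sesn1, Gdf15, Polk), with a median difference of -0.17 (limma, Benjamini-Hochberg adjusted p under 0.05 over 13648 genes). Of all genes tested, 32.4% were called, 18.2% higher and 14.2% lower, with a median of -0.01. Under the inhibitor, KO + H-151 against KO, 6 were higher (Gdf15, Sesn1, Bax, Btg2, Ccng1, Zmat3) and 1 was lower (Mdm2), with a median of 0.21. Of all genes 40.8% were called there, 19.4% higher and 21.4% lower, with a median of 0.02. In KO + H-151 against control, 5 were higher (Gdf15, Sesn1, Bax, Trp53inp1, Zmat3) and 1 was lower (Perp), with a median of 0.20. Of all genes 22.9% were called there, 11.5% higher and 11.4% lower, with a median of 0.00. With 2 libraries a group, groups without overlap are common, at 66.9%, 69.2% and 59% of all genes in the same 3 comparisons. These comparisons share libraries, so their counts are not independent of each other. With columns scaled to the same total, which moved the median of all genes to -0.16 for KO over control and to 0.18 for the inhibitor, the member counts were 0 higher and 6 lower in the first and 8 and 0 in the second. The share of higher genes among all genes called was then 29.9% and 71.2%, against 56.2% and 47.5% as deposited.

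The counts also rested on single libraries. In KO against control, the higher members numbered 1 without control replicate 2, KO replicate 1 or KO replicate 2, and the lower ones 3 without control replicate 2, 2 without KO replicate 1 and 3 without KO replicate 2. For KO + H-151 over KO, the higher members numbered 2 without KO replicate 1, 4 without KO replicate 2 or KO + H-151 replicate 1 and 3 without KO + H-151 replicate 2. The 1 lower member there was lost without KO replicate 1, KO replicate 2 or KO + H-151 replicate 2. For KO + H-151 over control, the higher members numbered 2 without control replicate 2, and 3 without control replicate 1, either KO library or KO + H-151 replicate 1. Without a trend in the prior variance 11 calls were lost, those of Mdm2, Btg2, Sesn1 and Polk in KO against control, of Mdm2, Ccng1, Btg2, Bax and Zmat3 between KO + H-151 and KO, and of Bax and Zmat3 between KO + H-151 and control. DESeq2 lost 6, those of Sesn1 and Polk in KO against control, of Btg2, Bax and Zmat3 between KO + H-151 and KO, and of Zmat3 between KO + H-151 and control. The plot of levels by library shows how far the groups stand apart for each gene.

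**Figure D1:**
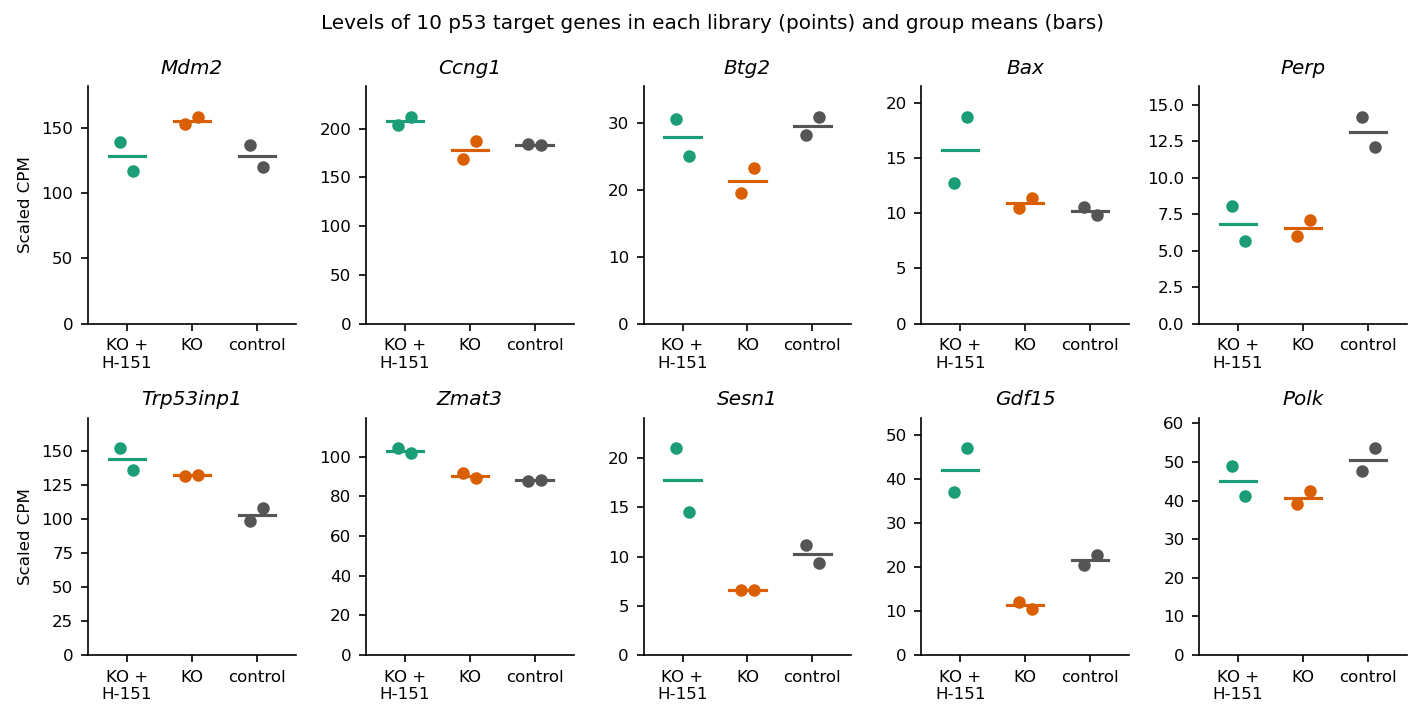
Level of each of the 10 p53 target genes in scaled CPM (vertical axes from 0) in the 2 libraries of KO + H-151, KO and control (points), with the group mean (bar). Gdf15 and Sesn1 are lowest in KO and highest in KO + H-151, Perp is low in both Cre-bearing groups, and Ccng1 and Bax overlap between KO and control.

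Mdm2 and Ccng1 feed back on p53. Mdm2 (chromosome 10, 117688875 to 117710758, minus strand, GRCm38), the ubiquitin ligase that marks p53 for degradation and is itself a p53 target, had 139.8 and 117 scaled CPM in KO + H-151, 153 and 159 in KO, and 137 and 120.4 in control. The KO libraries were the highest, and the KO + H-151 libraries overlapped the control libraries. Mdm2 was higher in KO than in control by 0.28 ± 0.09 (SE, fold 1.21, adjusted p = 0.0219, limma) and lower in KO + H-151 than in KO by a difference of -0.28 ± 0.09 (adjusted p = 0.0156). The KO against control call was lost with total-count scaling (0.11, adjusted p = 0.314) and quantile normalization (0.13, 0.286), and when control replicate 2 (adjusted p = 0.237), KO replicate 1 (0.0999) or KO replicate 2 (0.173) was left out. The call for H-151 was lost with the same scalings (-0.11, adjusted p = 0.332, and -0.09, 0.465) and without KO replicate 1 (0.0781), KO replicate 2 (0.136) or KO + H-151 replicate 2 (0.159). Between KO + H-151 and control the Mdm2 difference was -0.01, with a 95% interval of -0.19 to 0.18.

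Ccng1 (chromosome 11, 40748552 to 40755311, minus strand), which encodes cyclin G1, a partner of the phosphatase PP2A that acts on Mdm2, had 204 and 212 scaled CPM in KO + H-151, 168 and 187 in KO, and 184 and 183 in control. The KO libraries lay on both sides of control, and the KO + H-151 libraries lay above all others. The difference of KO + H-151 from control was 0.18, with a 95% interval of 0.03 to 0.33, and did not pass (adjusted p = 0.0743, limma). It passed in 2 of 19 other fits. KO and control differed by -0.05, with a 95% interval of -0.19 to 0.10 (adjusted p = 0.651). This difference passed the test with total-count scaling (-0.21, adjusted p = 0.0238) and quantile normalization (-0.19, 0.0401). Ccng1 was higher in KO + H-151 than in KO by 0.23 ± 0.07 (adjusted p = 0.0153), a call lost without KO replicate 1 (adjusted p = 0.204) or KO + H-151 replicate 2 (0.0506).

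Btg2 (chromosome 1, 134075170 to 134079120, minus strand), an antiproliferative factor that recruits the deadenylation of messenger RNA, had 30.6 and 25.1 scaled CPM in KO + H-151, 19.5 and 23.3 in KO, and 28.2 and 30.9 in control. Both KO libraries were below the others. Btg2 was lower in KO than in control (-0.45 ± 0.12, fold 0.730, adjusted p = 0.00929) and higher in KO + H-151 than in KO (0.37 ± 0.12, adjusted p = 0.0253). The first call did not pass when control replicate 2 (adjusted p = 0.0936) or KO replicate 1 (0.139) was left out, and the second without KO replicate 1 (0.246) or KO + H-151 replicate 1 (0.203). The second was also lost with DESeq2 (adjusted p = 0.0733).

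The members tied to cell death went separate ways. Bax (chromosome 7, 45461697 to 45466898, minus strand), which permeabilises the mitochondrial outer membrane in apoptosis, had 12.8 and 18.8 scaled CPM in KO + H-151, 10.4 and 11.4 in KO, and 10.6 and 9.87 in control. The KO and control libraries overlapped, with a difference of 0.09 and a 95% interval of -0.26 to 0.44. Both KO + H-151 libraries were above them, but replicate 2 stood well above replicate 1. Bax was higher in KO + H-151 than in KO by 0.47 ± 0.17 (adjusted p = 0.0317) and than in control by 0.56 ± 0.17 (adjusted p = 0.0226). Without KO + H-151 replicate 2 these were 0.21 (adjusted p = 0.392) and 0.30 (0.277). The call against KO was also lost with DESeq2 (0.0659) and without KO replicate 1 (0.182) or 2 (0.0920), and that against control without control replicate 1 (0.0676) or 2 (0.137) or KO replicate 2 (0.0510); without KO replicate 1 it lay on the threshold and did not pass. A gene model of the same strand, Gm45808, overlaps Bax in the annotation, but not in the last 1000 bases, where 3' tags fall.

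Perp (chromosome 10, 18845020 to 18857073, plus strand), a tetraspan membrane protein of desmosomes that is also a p53 effector in apoptosis, had 8.04 and 5.63 scaled CPM in KO + H-151, 6.01 and 7.07 in KO, and 14.2 and 12.1 in control. All 4 Cre-bearing libraries were below both control libraries, and the Cre-bearing groups overlapped each other. Perp was lower in KO (-0.91 ± 0.18, fold 0.533, adjusted p = 0.000843) and in KO + H-151 (-0.87 ± 0.18, fold 0.549, adjusted p = 0.00202) than in control. KO + H-151 and KO differed by 0.04, with a 95% interval of -0.34 to 0.42. Both calls against control held without any 1 of the 6 libraries and in each other fit that tested Perp, with differences of -1.05 to -0.70 in KO and -1.09 to -0.64 in KO + H-151. The level rests on 69 to 199 reads per library, which includes the lowest read count of the 10 genes. Perp is abundant in keratinocytes, a skin cell a dermal culture could hold. Of 12 keratinocyte markers 2 were among the listed genes, Krt10 and Sfn. Sfn was counted in this list only and in none of the p53 lists. Whether its change reflects keratinocytes was not tested. The summed level of Krt10 and Sfn was 12.5 to 14.3 in KO + H-151, 15.6 to 18.5 in KO, and 11.8 to 12.0 in control. Sfn was higher in KO than in control (0.67 ± 0.19, adjusted p = 0.0133, limma). It was lower in KO + H-151 than in KO (-0.55 ± 0.19, adjusted p = 0.0316, limma). Krt10 passed in neither comparison. The part of these 2 genes in the Perp result was not tested.

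Trp53inp1 (chromosome 4, 11156431 to 11174379, plus strand), a stress protein that promotes p53 activity and autophagy, had 152 and 136 scaled CPM in KO + H-151, 131 and 133 in KO, and 98.2 and 108 in control. All 4 Cre-bearing libraries were above both control libraries. Trp53inp1 was higher in KO (0.35 ± 0.08, fold 1.28, adjusted p = 0.00186) and in KO + H-151 (0.48 ± 0.08, fold 1.39, adjusted p = 0.000251) than in control. The call in KO was lost with total-count scaling (0.19, adjusted p = 0.0546) and quantile normalization (0.20, 0.0527), and no library left out ended it. The call in KO + H-151 held in each other fit, with differences of 0.40 to 0.55. Between KO + H-151 and KO the difference was 0.12, with a 95% interval of -0.04 to 0.28, and it passed with total-count scaling (0.30, adjusted p = 0.00420) and quantile normalization (0.32, 0.00365).

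Zmat3 (chromosome 3, 32334792 to 32366014, minus strand), an RNA-binding protein that p53 uses to steer splicing and growth control, had 104 and 102 scaled CPM in KO + H-151, 91.8 and 89.1 in KO, and 87.9 and 88.5 in control. KO and control differed by 0.04, with a 95% interval of -0.11 to 0.18 (adjusted p = 0.740). The KO + H-151 libraries were above all others, by 0.19 ± 0.07 against KO (adjusted p = 0.0451) and 0.22 ± 0.07 against control (adjusted p = 0.0316). Both calls were close to the threshold. The call against KO was lost with median scaling (adjusted p = 0.0593), a fit of only the groups compared (0.0630), the replicate block (0.0584) and DESeq2 (0.155), and the call against control with a fit of only the groups compared (0.0551) and DESeq2 (0.0996). Leaving out any 1 of the 6 libraries ended the call against KO, at an adjusted p of 0.0632 for either control library, 0.108 and 0.196 for KO replicates 1 and 2, and 0.121 and 0.0636 for KO + H-151 replicates 1 and 2. All but KO + H-151 replicate 2 ended the call against control, at 0.135 and 0.131 for control replicates 1 and 2, 0.0577 for either KO library and 0.0923 for KO + H-151 replicate 1.

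Gdf15 and Sesn1 had the largest differences of the 10 genes between KO + H-151 and KO. Sesn1 (chromosome 10, 41809935 to 41908424, plus strand) encodes sestrin 1, which restrains the growth kinase mTORC1 under stress. It had 20.97 and 14.6 scaled CPM in KO + H-151, 6.62 and 6.56 in KO, and 11.2 and 9.30 in control. The 3 groups did not overlap: KO was lowest, control lay between, and KO + H-151 was highest. Sesn1 was lower in KO than in control (-0.56 ± 0.17, fold 0.678, adjusted p = 0.0189), higher in KO + H-151 than in KO (1.29 ± 0.17, fold 2.44, adjusted p = 1.49e-05) and higher in KO + H-151 than in control (0.72 ± 0.17, fold 1.65, adjusted p = 0.00549). The rise with H-151 held in each other fit, from 1.02 to 1.53. The fall in KO was lost with DESeq2 (adjusted p = 0.0513) and without control replicate 1 (0.157), KO replicate 1 (0.0980) or KO replicate 2 (0.106). The rise above control was lost without control replicate 2 (0.0772) or KO + H-151 replicate 1 (0.0907).

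Gdf15 (chromosome 8, 70629393 to 70632456, minus strand), a hormone of the TGF-beta superfamily that many kinds of cell stress induce, had 37.0 and 46.9 scaled CPM in KO + H-151, 12.0 and 10.5 in KO, and 20.5 and 22.7 in control. The groups again did not overlap, in the same order as for Sesn1. Gdf15 was lower in KO than in control (-0.89 ± 0.13, fold 0.541, adjusted p = 5.22e-05), higher in KO + H-151 than in KO (1.80 ± 0.13, fold 3.49, adjusted p = 9.49e-09) and higher in KO + H-151 than in control (0.92 ± 0.13, fold 1.89, adjusted p = 8.01e-05). All 3 calls held in each other fit, from -1.04 to -0.75, from 1.59 to 1.97 and from 0.75 to 1.09. The levels rest on 123 to 750 reads per library.

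Polk (chromosome 13, 96480690 to 96542579, minus strand), the translesion DNA polymerase kappa, had 48.9 and 41.1 scaled CPM in KO + H-151, 39.0 and 42.5 in KO, and 47.6 and 53.5 in control. The KO libraries were below control, and the KO + H-151 libraries overlapped both other groups. Polk was lower in KO than in control (-0.30 ± 0.10, fold 0.811, adjusted p = 0.0311), a call lost with DESeq2 (adjusted p = 0.0909) and without control replicate 2 (0.25), KO replicate 1 (0.224) or KO replicate 2 (0.0769). KO + H-151 differed from KO by 0.14 and from control by -0.17, with 95% intervals of -0.08 to 0.35 and -0.38 to 0.05. The difference from KO passed with total-count scaling (0.31, adjusted p = 0.0191). Gm17622 on the opposite strand overlaps Polk in the annotation, though not in its last 1000 bases, and the strand setting of the counting is not given in the sources used here.

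**Figure D2:**
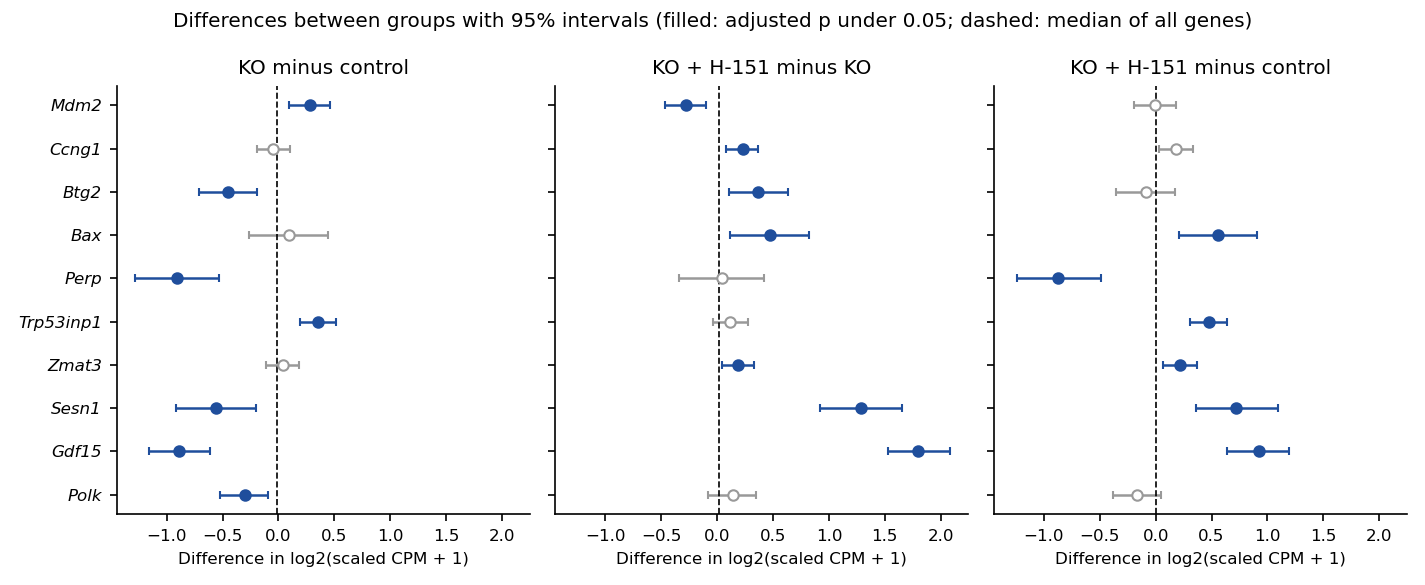
Differences in log2(scaled CPM + 1) for the 10 genes (rows) in KO minus control, KO + H-151 minus KO and KO + H-151 minus control, with 95% intervals; filled points have an adjusted p under 0.05, and the dashed line is the median of all genes. Gdf15 runs from -0.89 in KO minus control to 1.80 in KO + H-151 minus KO, and Perp is at -0.91 and -0.87 against control in both Cre-bearing groups.

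Markers of some other cell types moved with the Gdf15 and Sesn1 results under H-151. The marker counts below can be read against the shares called among all tested genes. For KO minus control these shares were 18.2% up and 14.2% down. For KO + H-151 minus KO they were 19.4% up and 21.4% down, and for KO + H-151 minus control 11.5% and 11.4%. The summed level of 10 macrophage markers was 3022 to 3765 in KO + H-151, 1461 to 1479 in KO, and 1167 to 1391 in control, and none of the 10 was at 0 in any library. All 10 were higher in KO + H-151 than in KO and than in control. In KO against control 3 of the 10 were higher, 1 was lower (Csf1r, -0.46) and 6 did not pass, with a median of 0.22, whereas Gdf15 and Sesn1 were lower there. The sum of 6 listed adipocyte markers was 3120 to 4232 in KO + H-151, 1174 to 1355 in KO, and 1321 to 1556 in control. All 6 were higher in KO + H-151 than in KO, and 2 of the 6 were lower in KO than in control. The sum of 6 listed endothelial markers was 18.5 to 21.4 in KO + H-151, 12.0 to 13.2 in KO, and 17.9 to 19.5 in control. Of these 6, 4 were lower and 1 higher in KO than in control, and 3 were higher in KO + H-151 than in KO. Pecam1, Cdh5 and Emcn, among those lower, rest on only 3 to 5 reads in each KO library. Kdr, the 1 that was higher, made up much of the KO sum, at 6.79 and 7.24 scaled CPM. For 8 listed melanocyte and Schwann cell markers the sum was highest in KO. It was 86.4 to 104 in KO + H-151, 181 to 195 in KO, and 81.8 to 90.4 in control. In KO 5 of the 8 were higher and 2 lower than in control. In KO + H-151 2 were higher and 2 lower than in KO. Of the 2 KO + H-151 libraries, replicate 1 had the higher macrophage, adipocyte and endothelial sums, the higher Sesn1 level and the lower Gdf15 level. The sum of 10 interferon-stimulated genes ran the other way, at 83.5 to 104 in KO + H-151, 30806 to 31528 in KO, and 249.6 to 279 in control. 1 of its 10 genes was at 0 in KO + H-151 replicate 1. The part of these lists in the Gdf15 and Sesn1 results was not tested.

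**Figure D3:**
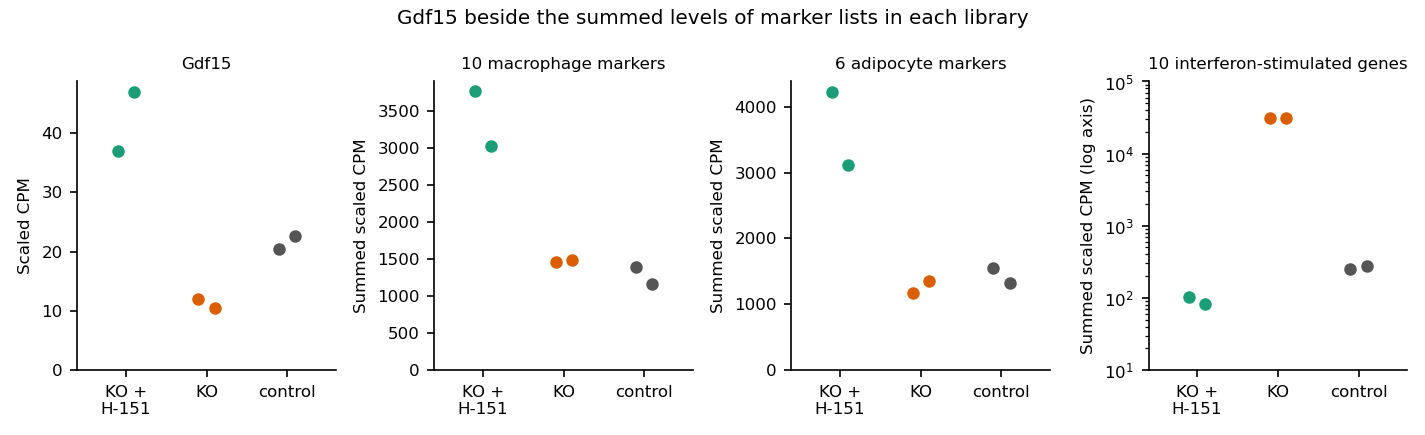
Gdf15 in scaled CPM and the summed scaled CPM of macrophage, adipocyte and interferon-stimulated gene lists in each library of KO + H-151, KO and control; the last axis is logarithmic. Gdf15 at 37.0 and 46.9 and both marker sums are highest in KO + H-151, whereas the interferon-stimulated sum is highest in KO.

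The wider p53 pathway was read from further lists. Of 38 other p53 targets tested, KO had 13 higher and 3 lower than control, with a median difference of 0.06, against the 18.2% and 14.2% of all genes. With total-count scaling these counts were 9 and 14. Cdkn1a, which encodes the cell cycle inhibitor p21 and is the classical p53 target, had 843 and 838 scaled CPM in KO + H-151, 946 and 876 in KO, and 754 and 796 in control. Its difference in KO was 0.23 ± 0.07 (adjusted p = 0.0136), which did not pass without a trend in the prior variance. That call was lost with total-count scaling (0.07, adjusted p = 0.424), without control replicate 1 (0.123) and without KO replicate 1 (0.188), and the sign turned with quantile normalization (-0.03, adjusted p = 0.806). The gene that changed most was Tap1, a peptide transporter of antigen presentation that interferon also induces, with 30.2 and 26.5 in KO + H-151, 229 and 229 in KO, and 25.1 and 25.01 in control (3.14 ± 0.09 in KO, adjusted p = 3.70e-14).

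Genes tied to cell death differed among themselves. Bbc3, the apoptosis activator PUMA, had 45.8 and 40.1 scaled CPM in KO + H-151, 67.0 and 57.3 in KO, and 30.2 and 34.4 in control (0.92 ± 0.10 in KO against control, adjusted p = 2.86e-06). Fas, the death receptor, had 22.02 and 21.4 in KO + H-151, 47.4 and 51.5 in KO, and 28.2 and 27.0 in control, and its difference was -1.15 ± 0.10 between KO + H-151 and KO (adjusted p = 8.07e-08). Chosen after their values were seen, Pmaip1 (NOXA), Apaf1 and Eda2r were also higher in KO, by 1.37 ± 0.16, 0.95 ± 0.14 and 0.96 ± 0.11, and lower in KO + H-151 than in KO, by differences of -1.43, -1.05 and -1.06. Other death genes of the list, also chosen after their values were seen, did not pass in KO against control, with differences of 0.20 for Aen, 0.11 for Ei24, -0.35 for Pidd1 and -0.02 for Tnfrsf10b. Gadd45a, a growth arrest and DNA damage gene, had the same order of groups as Gdf15, with 106 and 105 in KO + H-151, 39.6 and 40.3 in KO, and 74.4 and 82.8 in control (-0.96 ± 0.08 in KO, adjusted p = 6.82e-08). It was higher in KO + H-151 than in KO by 1.38 ± 0.08 (adjusted p = 5.41e-10). In all, 10 of the 38 were higher and 9 lower in KO + H-151 than in KO, with a median of 0.02, against 19.4% and 21.4% of all genes. With total-count scaling these counts were 16 and 7. Against control, KO + H-151 had 9 higher and 3 lower, with a median of 0.11, against 11.5% and 11.4% of all genes. There were 4 higher without control replicate 1 or 2 and 1 lower without control replicate 2. Those with the smallest p were Plk2, a kinase, at -0.66 ± 0.09, and Ephx1, an epoxide hydrolase, at 0.36 ± 0.07.

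Regulators of p53 were counted next. Of 20, KO had 5 higher and 2 lower than control (median 0.12), 1 was higher and 9 lower in KO + H-151 than in KO (median -0.25), and 1 was higher and 3 lower in KO + H-151 than in control (median -0.08). The shares of all genes were 18.2% higher and 14.2% lower in the first comparison, 19.4% and 21.4% in the second, and 11.5% and 11.4% in the third. Trp53, the p53 gene itself, had 18.2 and 15.6 scaled CPM in KO + H-151, 23.9 and 21.6 in KO, and 18.7 and 21.8 in control. KO and control overlapped at a difference of 0.17 ± 0.13 (adjusted p = 0.349). The difference of KO + H-151 from KO was -0.41 ± 0.13 (adjusted p = 0.0160), lost with total-count scaling (-0.24, 0.125) and without KO replicate 1 (0.141) or KO + H-151 replicate 2 (0.107). Protein level and activity of p53 are not seen in messenger RNA.

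Larger differences were seen in a pair of regulators. Atm, the kinase that signals DNA double-strand breaks to p53, had 36.6 and 32.5 scaled CPM in KO + H-151, 158 and 141 in KO, and 28.98 and 30.5 in control, a difference of 2.29 ± 0.09 in KO (adjusted p = 4.24e-12). Daxx, a histone chaperone that interferon induces, had 45.6 and 38.0 in KO + H-151, 547 and 584 in KO, and 44.4 and 50.8 in control, a difference of 3.55 ± 0.09 in KO (adjusted p = 1.79e-14). The interferon-stimulated sum given above moved with Atm, Daxx and Tap1. Like Bbc3, Fas, Pmaip1, Apaf1 and Eda2r, this sum was highest in KO. Its part in the results for all of these genes was not tested. Cdkn2a, whose ARF product inhibits Mdm2, was higher in KO than in control by 0.81 ± 0.13 (adjusted p = 0.000183), with 22.1 ± 5.06 scaled CPM in KO + H-151, 30.9 ± 1.46 in KO and 17.2 ± 0.361 in control (SD, n = 2 each). These values are counted per gene symbol and do not single out the ARF transcript. Mdm4, the partner of Mdm2, was at 49.9 ± 4.53 in KO + H-151, 65.5 ± 0.354 in KO and 61.6 ± 1.13 in control. Its difference of KO from control did not pass (0.09 ± 0.08, adjusted p = 0.472), and KO + H-151 was lower than KO, with a difference of -0.39 ± 0.08 (adjusted p = 0.00152). The checkpoint kinase gene Chek2 did not pass in any comparison, except between KO + H-151 and KO with total-count scaling (0.43, adjusted p = 0.0419). Chek1, at 3.14 ± 1.67 scaled CPM in KO + H-151, 3.19 ± 0.293 in KO and 5.63 ± 1.01 in control, passed against control at adjusted p = 0.0494 for KO. Leaving out any 1 of the 4 libraries compared ended that call, at an adjusted p of 0.0664 and 0.279 for control replicates 1 and 2 and of 0.141 and 0.239 for KO replicates 1 and 2, and edgeR (0.0567) and DESeq2 (0.130) did not make it.

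**Figure D4:**
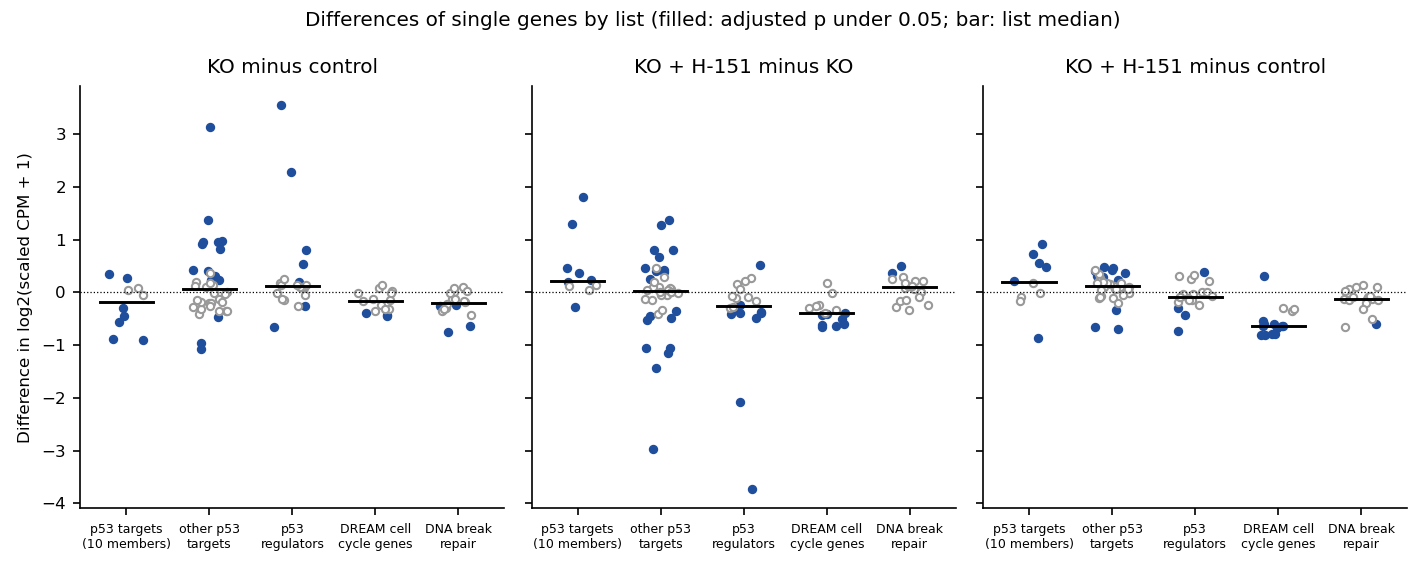
Differences in log2(scaled CPM + 1) of single genes in 5 lists for KO minus control, KO + H-151 minus KO and KO + H-151 minus control; filled points have an adjusted p under 0.05 and bars are list medians. The highest points in KO minus control are Daxx at 3.55, Tap1 at 3.14 and Atm at 2.29, and the DREAM cell cycle genes have a median of -0.63 in KO + H-151 minus control.

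Cell cycle genes that p53 is known to lower through p21 and the DREAM repressor complex were counted as well. Of 15 tested, 3 (Top2a, Ccnb1 and Cdc20) were lower in KO than in control and 12 did not pass (median -0.17), against 14.2% of all genes lower. Each of these 3 calls was lost with DESeq2 and without control replicate 2 or KO replicate 2. KO + H-151 had 8 lower than KO, and 7 that did not pass (median -0.39), against 21.4% of all genes lower. Against control 1 was higher (E2f1, named after its value was seen) and 11 were lower (median -0.63), against 11.5% and 11.4% of all genes. The KO + H-151 libraries stood well apart here, with a summed level of the 15 genes of 369 in replicate 1 and 484 in replicate 2. That sum was 533 to 587 in KO and 629 to 674 in control. Cdk1, the mitotic kinase, had 48.8 ± 2.10 scaled CPM in KO + H-151, 75.1 ± 1.51 in KO and 84.8 ± 3.65 in control (SD, n = 2 each), and KO + H-151 was lower than KO by a difference of -0.61 ± 0.08 (adjusted p = 9.41e-06). Mki67, the proliferation marker, had 38.8 ± 11.5 in KO + H-151, 54.3 ± 5.90 in KO and 67.4 ± 4.62 in control.

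Genes of DNA double-strand break repair completed the lists. Of 18 tested, 4 were lower in KO than in control and 14 did not pass (median -0.21), against 14.2% of all genes lower. KO + H-151 had 2 higher than KO, and 16 that did not pass (median 0.11), against 19.4% of all genes higher. H2ax, the histone that is phosphorylated at breaks, had 28.6 ± 2.37 scaled CPM in KO + H-151, 20.1 ± 5.53 in KO and 31.2 ± 2.39 in control (-0.63 ± 0.15 in KO, adjusted p = 0.00308), a call lost without KO replicate 1 (-0.36, adjusted p = 0.0839). Brca1, a repair scaffold, was at 3.26 ± 0.101 in KO + H-151, 2.58 ± 0.0403 in KO and 5.09 ± 0.144 in control (-0.76 ± 0.18 in KO, adjusted p = 0.00404). Its level rests on few reads, 51 in each KO + H-151 library, 30 in each KO library, and 70 and 72 in control.

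The genes most like 3 of the members were sought among 10171 others with a mean of at least 5 scaled CPM, by the distance between their pairs of differences (KO minus control and KO + H-151 minus KO). The nearest to Mdm2 were Eogt, Rab13 and Sh3bp4, each at 0.27 and -0.28 or -0.29. The nearest to Gdf15 were Mtss1 (distance 0.118), C5ar1 at -0.84 and 1.61, and Cd300lb at -1.06 and 1.97. C5ar1 and Cd300lb encode receptors of myeloid cells. C5ar1 averaged 22.2 scaled CPM in KO + H-151, 6.53 in KO and 12.4 in control. The nearest to Perp were Fbxo5 at -0.84 and 0.04, Pcsk6 at -0.80 and 0.01, and Sox11 at -0.79 and 0.02. This likeness rests on the means of 3 groups.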

How the data were processed

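The authors deposited 1 table of scaled signal, which is CPM computed with an effective library size, judged from the file's values. It gives 13706 gene symbols in 6 libraries, 2 in each of 3 groups. The tests had been planned for plain CPM and apply to this unit unchanged. QuantSeq 3' libraries were made, per the labels' protocols. The submitters' processing notes name mm10, edgeR, featureCounts and STAR 2.5.3a; annotation, strand setting and filters are not given in the sources used here. Dividing each column by the worth of 1 read (0.0625 to 0.0871 scaled CPM) gave whole reads for 100.0% of values (tolerance 0.0006). These served edgeR 4.0.16 and DESeq2 1.42.0 as alternatives, and edgeR called 2423 genes higher in KO and 1851 lower.

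A gene was tested when 2 or more libraries had 1 scaled CPM or more (13648 genes; 58 were left out). limma 3.58.1 in R 4.3.3 was fitted to log2(scaled CPM + 1), with 1 mean per group and a trend in the prior variance, and p-values were adjusted by the Benjamini-Hochberg method over all tested genes at a threshold of 0.05. This scale understates the fold changes of low genes. The scripts were tested on simulated data. Positions are from GENCODE M21 (GRCm38, the build of mm10), and promoter letters from RefSeq.

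The 10 genes, the other lists and the tests were chosen with earlier results of these data known. All 10 genes are named. From each further list the text names at most 4 genes per comparison (3 by smallest p, 1 by highest mean) and also Trp53, Mdm4, Cdkn2a, Atm, Chek1, Chek2 and Cdkn1a. Any further gene is said to be picked with its values in view. Alternatives were other pseudocounts, filters, scalings, fits and tools, a minimum change, and each library left out in turn. A result that the rule would name is not reported here.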

Additional observations from a re-analysis of the deposited data

How the results depend on the processing

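With 2 libraries a group, small differences could not be settled: of the 30 member values (10 genes in 3 comparisons), all 30 kept their sign and side of the threshold under pseudocounts of 0.25 and 4, without a filter and with edgeR. Without KO replicate 1, 17 of the 30 did. The 2-fold minimum was applied on the log2(scaled CPM + 1) scale, which understates the fold changes of low genes such as Perp. Settings that moved a count by over 1.5 times were these. Members higher in KO than in control numbered 0 with total-count scaling and with quantile normalization, 1 without a trend in the prior variance, 0 at a 2-fold minimum and 1 to 2 with a library left out; members lower there numbered 2 without a trend, 3 with DESeq2, 0 at a 2-fold minimum and 2 to 5 with a library left out. Members higher in KO + H-151 than in KO numbered 2 without a trend, 3 with DESeq2, 2 at a 2-fold minimum and 2 to 5 with a library left out; those lower numbered 0 with total-count scaling, quantile normalization, no trend and a 2-fold minimum, and 0 to 1 with a library left out. Members higher in KO + H-151 than in control numbered 3 without a trend, 0 at a 2-fold minimum and 2 to 4 with a library left out; those lower numbered 0 at a 2-fold minimum and 0 with a filter on a mean of 10, which does not test Perp. The causes were not tested beyond that.

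Among all genes, those higher in KO than in control numbered 779 at a 2-fold minimum, and those lower 1266 with the filter on a mean of 10, 4054 with total-count scaling, 2989 with quantile normalization, 1217 with DESeq2, 207 at a 2-fold minimum and 1165 to 2186 with a library left out. Between KO + H-151 and KO, 1676 were higher with the filter on a mean of 10, 4770 with total-count scaling and 429 at a 2-fold minimum, and 1930 lower with total-count scaling and 867 at a 2-fold minimum. Between KO + H-151 and control, 253 were higher and 168 lower at a 2-fold minimum, 937 lower without a trend, and 951 to 1373 higher and 924 to 1499 lower with a library left out.

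Signs turned only for values that were not called, Cdkn1a in KO against control excepted (-0.03 with quantile normalization). With total-count scaling these were Bax (-0.06), Zmat3 (-0.13), Mdm4 (-0.07), Rpl11 (-0.01) and Rad50 (-0.14) in KO against control, Cdkn1a (0.06) and Chek1 (0.06) in KO + H-151 against KO, and Mdm2 (0.01) in KO + H-151 against control. With quantile normalization they were Zmat3 (-0.12), Mdm4 (-0.07), Rpl11 (-0.04) and Rad50 (-0.14), Cdkn1a (0.16), Mdm2 (0.04) and Chek2 (-0.03) in the same comparisons, Chek2 against control. Chek2 in KO + H-151 against control was also -8.2e-05 with edgeR and -0.01 with DESeq2. With a library left out, signs turned for Ccng1 (range -0.12 to 0.03) and Rad50 (-0.02 to 0.06) in KO against control, for Perp (-0.18 to 0.26) and Chek1 (-0.50 to 0.35) in KO + H-151 against KO, and for Mdm2 (-0.13 to 0.12), Btg2 (-0.22 to 0.05) and Chek2 (-0.18 to 0.21) in KO + H-151 against control.

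The replicate numbers did not pair the libraries throughout: with the same number, the correlation of their deviations across genes was -0.068 for KO and control, -0.128 for KO + H-151 and KO, and 0.154 for KO + H-151 and control. A replicate block called 2 members up and 5 down in KO over control, 5 higher and 1 lower in KO + H-151 than in KO (without Zmat3, adjusted p = 0.0584), and 5 higher and 1 lower in KO + H-151 than in control. With the KO numbers crossed, chosen after seeing the data, these counts were 2 and 5, 6 and 1, and 6 and 1.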
